A study of Mus musculus with 6 samples.

Results

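The transcripts of 10 genes were followed that encode demethylases, or close relatives of demethylases, for lysines 9 and 36 of histone H3: Kdm2a, Kdm3a, Kdm3b, Jmjd1c, Kdm4a, Kdm4b, Kdm4c, Kdm7a, Phf8 and Phf2. A row of the array table was taken as a member when the annotation of the platform listed a single gene symbol for it and that symbol was 1 of these names. All 10 genes were found, with 12 of the 21789 probe sets that carry a single symbol and 10 of the 19938 genes those probe sets cover. Kdm7a and Jmjd1c each had a pair of probe sets, and the one with the higher mean over the 6 arrays stood for the gene. RNA came from heads of E8.5 embryos of the C57BL/6 strain and was profiled with Affymetrix mouse Gene ST arrays, on which a probe set summarizes several probes of a transcript. Each array held a pool of 4 heads, with 3 pools of Jarid1b heterozygotes (het) and 3 of Jarid1b knockouts (KO). The mutant allele lacks a loxP-flanked exon and was made by a cross to mice with the constitutive Cmv-cre transgene. The controls were heterozygous for the same allele and not wild-type, and the comparison shows the loss of the remaining copy.

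Methylation of H3K9 marks repressed chromatin, while H3K36 methylation is laid down along transcribed genes. Enzymes with a JmjC domain use iron and 2-oxoglutarate to take these methyl groups off. Jarid1b belongs to another branch of the JmjC family that acts on H3K4, the mark of start sites, and the members here share its catalytic fold but not its main substrate. Among them, Kdm2a acts on lower methylation states of H3K36 and carries a zinc finger that binds unmethylated CpG, Kdm3a, Kdm3b and Jmjd1c form the subfamily for lower states of H3K9, and the Kdm4 enzymes remove trimethylation from both lysines. Kdm7a, Phf8 and Phf2 each combine a PHD finger that binds trimethylated H3K4 with a JmjC domain.

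Each member with a matched start window had at least 1 that was rich in CpG, the dinucleotide that is bound by the CXXC finger of Kdm2a. RefSeq windows of GRCm38.p6 that run from 250 bases before to 50 bases after an annotated start were matched for 7 members (Kdm3a, Jmjd1c, Kdm4a, Kdm4c, Kdm7a, Phf8 and Phf2). Each of these 7 genes had at least 1 window with a GC content of at least 50% and an observed over expected CpG ratio of at least 0.6, compared with 35.99% of 27025 genes in the table. Of their 11 windows 8 met both limits, as did 33.5% of all 32851 windows. These shares cover all genes and windows, and none was counted for genes as bright as the members. Binding of Kdm2a was not measured. Windows of the pair of members whose knockout pools all lay above the heterozygote pools are shown 5′ to 3′ with every CG in capitals. They lie at chr6:39206724-39207023 on the minus strand for Kdm7a, with 65 CpG, and at chr10:67126838-67127137 on the plus strand for Jmjd1c, with 47 CpG, where the median of all windows is 7. Each printed window was the one of its gene with the highest observed over expected CpG ratio. The other Jmjd1c window had 13 CpG and a GC content of 48.33%, below the limit. Which start site was used in the embryonic head was not measured.
Kdm7a: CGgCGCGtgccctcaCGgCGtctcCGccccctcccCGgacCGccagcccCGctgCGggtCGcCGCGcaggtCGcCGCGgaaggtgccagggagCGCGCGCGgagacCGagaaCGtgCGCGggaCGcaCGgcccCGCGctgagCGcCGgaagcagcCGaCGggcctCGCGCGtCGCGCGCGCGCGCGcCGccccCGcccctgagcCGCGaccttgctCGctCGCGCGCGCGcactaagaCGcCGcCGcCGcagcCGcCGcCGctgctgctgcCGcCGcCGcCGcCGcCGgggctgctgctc
Jmjd1c: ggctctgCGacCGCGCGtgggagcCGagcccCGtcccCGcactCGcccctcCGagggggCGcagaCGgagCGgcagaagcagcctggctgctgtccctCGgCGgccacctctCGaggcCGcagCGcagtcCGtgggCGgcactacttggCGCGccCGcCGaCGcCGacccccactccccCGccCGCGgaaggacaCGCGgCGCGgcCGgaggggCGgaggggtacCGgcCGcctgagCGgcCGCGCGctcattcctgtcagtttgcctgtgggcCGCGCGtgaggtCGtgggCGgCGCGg

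The arrays themselves separated the genotypes at the targeted gene. Jarid1b, named Kdm5b on the array, fell from a log2 intensity of 9.12 to 9.17 in heterozygote pools to 7.47 to 7.71 in knockout pools (log2 fold change -1.55, limma adjusted p = 6.29e-04). It was the only probe set of 21789 with an adjusted p under 0.05, or 0.00459% of those tested. Its relatives Kdm5a, at a log2 fold change of 0.08, Kdm5c, at -0.08, and the Y-linked Kdm5d, at 0.81, did not pass. The pools also differed in other ways. The mean log2 intensity of 3 Y-linked genes was 6.24 and 6.16 in heterozygote replicates 1 and 3, whereas the remaining 4 pools had values of 7.52 to 7.97. The log2 of the summed intensity of 6 primitive blood markers reached 10.83 in knockout replicate 2 and lay between 7.89 and 8.91 elsewhere. Hba-x, Hbb-bh1, Hbb-y and Gata1 were highest in that pool, and Klf1 and Alas2 in other pools. For 8 yolk sac endoderm markers the same measure was 11.82 in knockout replicate 3 against 12.77 to 13.01 elsewhere. All 10 neural ectoderm markers lay above the dimmest 7263 probe sets, and heart markers were present too, with log2 values up to 12.26. In such bulk samples, fewer cells of a type and less RNA per cell cannot be told apart.

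No demethylase gene among the 10 reached an adjusted p under 0.05 by limma, where the lowest of their adjusted p-values was 0.466. At an unadjusted p under 0.05, 1 member was higher (Kdm7a) and 0 were lower in knockouts, beside 5.97% of all probe sets that were higher and 4.66% that were lower. Log2 fold changes were above 0 for 6 of the 10 genes and below 0 for 4. Their median was 0.017 and that of all probe sets -0.0007. Knockout and heterozygote pools did not overlap for 2 members, both higher in knockouts (Kdm7a and Jmjd1c), and for 0 members in the lower direction, beside backgrounds of 8.03% higher and 9.03% lower. Among the brightest 7263 probe sets, to which 9 of the members belong, these shares were 3.06% and 16.8%. These counts are small, and nothing particular to the demethylases can be read from them. No member changed by 2-fold or more. The 95% confidence intervals of the 10 genes ended at 1.25-fold on the higher side (Kdm7a) and 0.851-fold on the lower side (Phf8). Every interval thus excluded a change of 1.5-fold in array signal, which is not the same as transcript level. The probe set of Jarid1b itself kept a log2 intensity of 7.47 to 7.71 in knockout pools. By RT-qPCR, the paper reports no expression of this gene in knockouts. How far array signal understates a change in transcript level was not tested for the members.

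Signal was well above the dim end of the array for all members, with log2 intensities between 7.35 and 9.96. Of the 10 probe sets, 9 belonged to the brightest 7263 and Kdm4b to the middle group. Bright probe sets as a whole leaned lower in knockouts, with a median log2 fold change of -0.035. Only 0.716% of them were higher at an unadjusted p under 0.05 and 6.71% were lower. Intensity of a member varied over the 6 pools by 0.05 (Kdm4b) to 0.33 (Kdm7a) on the log2 scale, with a median range of 0.16, where bright probe sets had a median range of 0.18. Standard errors of the log2 fold changes ran from 0.05 to 0.07.

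**Figure D1:**
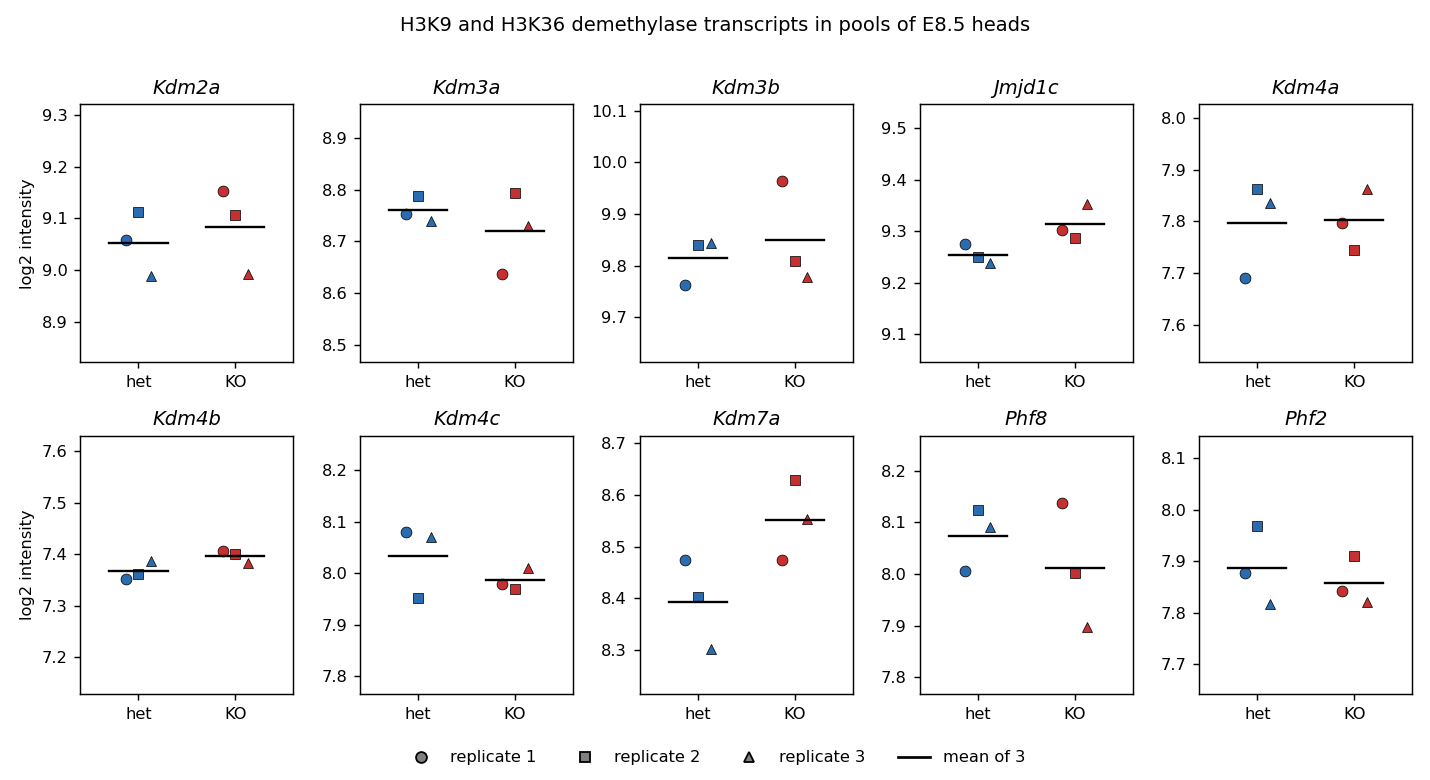
Log2 intensity of 10 demethylase genes in each pool of E8.5 heads, with heterozygotes (het) in blue, knockouts (KO) in red, a symbol for each replicate number and the mean of 3 pools as a black line. Every panel spans the same height on its own scale. Groups separate for Kdm7a and Jmjd1c and overlap for the other 8 genes.

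Kdm2a, which removes lower methylation states from H3K36, overlapped between the genotypes. Its log2 intensity ranged from 8.99 to 9.11 in heterozygote and from 8.99 to 9.15 in knockout pools, and the replicate 3 pool was the lowest of each genotype. The difference on the log2 scale was 0.03 (95% confidence interval -0.12 to 0.18), at an adjusted p of 0.887 in limma.

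The 3 genes of the Kdm3 subfamily moved in different directions and by little. Kdm3a, an H3K9 demethylase required in the male germ line, lay at 8.74 to 8.79 in heterozygotes and at 8.64, 8.79 and 8.73 in knockout replicates 1, 2 and 3, a log2 fold change of -0.04 (interval from -0.18 to 0.10). Kdm3b, its broadly expressed paralog, was measured at 9.76, 9.84 and 9.84 in heterozygotes and at 9.96, 9.81 and 9.78 in knockouts. Knockout replicate 1 was thus the highest pool for Kdm3b and the lowest for Kdm3a. For Kdm3b the log2 fold change was 0.04 (interval from -0.12 to 0.19), and without knockout replicate 1 it was -0.02.
Jmjd1c, a relative whose activity on H3K9 has been disputed, was tighter. Log2 intensities were 9.27, 9.25 and 9.24 in heterozygotes and 9.30, 9.29 and 9.35 in knockouts, so that the groups did not overlap and were 0.013 apart at their nearest pools. The log2 fold change was 0.06 (interval from -0.06 to 0.18), at an adjusted p of 0.703 in limma. Its second probe set, at a lower intensity of 7.75 to 7.92, gave 0.0081 with overlapping groups.

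Kdm4 genes, whose products remove trimethylation from H3K9 and H3K36, all overlapped between the genotypes. Kdm4a, which reads methylated histones through a double Tudor domain, had the smallest change of the 10 genes, a log2 fold change of 0.0052. Its lowest pool was heterozygote replicate 1 at 7.69, and the other 5 pools lay between 7.74 and 7.86. Kdm4b, known to be induced by hypoxia, had the narrowest groups, with 7.37 ± 0.02 (SD, n = 3) in heterozygotes and 7.40 ± 0.01 (SD, n = 3) in knockouts. Both means were 0.03 apart on the log2 scale (interval from -0.08 to 0.14). Kdm4c, also called Gasc1, had 8.03 ± 0.07 (SD, n = 3) in heterozygotes and 7.99 ± 0.02 (SD, n = 3) in knockouts. All 3 knockout pools of Kdm4c fell inside the span of the heterozygote pools, from 7.95 to 8.08, and the log2 fold change was -0.05 (interval from -0.18 to 0.09).

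Among the genes whose products combine an H3K4me3-binding PHD finger with a JmjC domain, Kdm7a had the largest difference of the 10 members. Kdm7a encodes a demethylase for H3K9 and H3K27 dimethylation. It was measured at 8.47, 8.40 and 8.30 in heterozygote replicates 1, 2 and 3 and at 8.48, 8.63 and 8.55 in the knockouts. Every knockout pool lay above every heterozygote pool, but by only 0.0017 between knockout replicate 1 and heterozygote replicate 1. The log2 fold change was 0.16, or 1.12-fold (standard error 0.07, interval from 0.0019 to 0.32), and limma gave an unadjusted p of 0.048 and an adjusted p of 0.466. An absolute change below that of Kdm7a was found in 85.0% of all probe sets.
The second Kdm7a probe set did not separate the genotypes. It read 8.28, 8.18 and 8.22 in heterozygotes and 8.29, 8.45 and 8.18 in knockouts, where knockout replicate 3 was the lowest of all 6 pools. Its log2 fold change of 0.08 had an interval from -0.10 to 0.26, and its adjusted p in limma was 0.748. With both probe sets averaged, the log2 fold change of Kdm7a was 0.12 (unadjusted p = 0.118), and the groups of that mean overlapped.
Single pools carried part of the Kdm7a difference. Both probe sets were highest in knockout replicate 2, the pool with the highest summed blood markers. Without this pool the log2 fold change was 0.12 (unadjusted p = 0.147). Without heterozygote replicate 3, the lowest pool of the main probe set, it was 0.11 (unadjusted p = 0.161). It was 0.16 without heterozygote replicate 2 (unadjusted p = 0.087) and 0.16 without knockout replicate 3 (unadjusted p = 0.090). In the other direction, it was 0.20 without heterozygote replicate 1 (unadjusted p = 0.033), 0.20 without knockout replicate 1 (unadjusted p = 0.030) and 0.20 after quantile normalization (unadjusted p = 0.021). With the Y-linked level of each pool as a covariate it was 0.14 (unadjusted p = 0.169), while a block for replicate number gave an unadjusted p of 0.074. The part of blood cells in these values was not tested.

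Phf8, an X-linked gene mutated in a human syndrome of intellectual disability with cleft lip, was measured at 8.01, 8.12 and 8.09 in heterozygotes and at 8.14, 8.0025 and 7.90 in knockouts. Knockout pools thus held both the highest and the lowest value. The log2 fold change was -0.06 (interval from -0.23 to 0.11), at an adjusted p of 0.792 in limma. Xist, transcribed from the inactive X of female cells, was low in heterozygote replicate 2 and knockout replicate 2, at 4.22 and 3.74, while the remaining pools had 8.82 to 10.17. In those low pools Phf8 was 8.12 and 8.0025, within its range over the other pools. Phf2, which acts on H3K9 together with the DNA-binding protein Arid5b, had 7.89 ± 0.08 (SD, n = 3) in heterozygotes and 7.86 ± 0.05 (SD, n = 3) in knockouts. Its log2 fold change was -0.03 (interval from -0.17 to 0.11), and Arid5b itself was at -0.05.

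**Figure D2:**
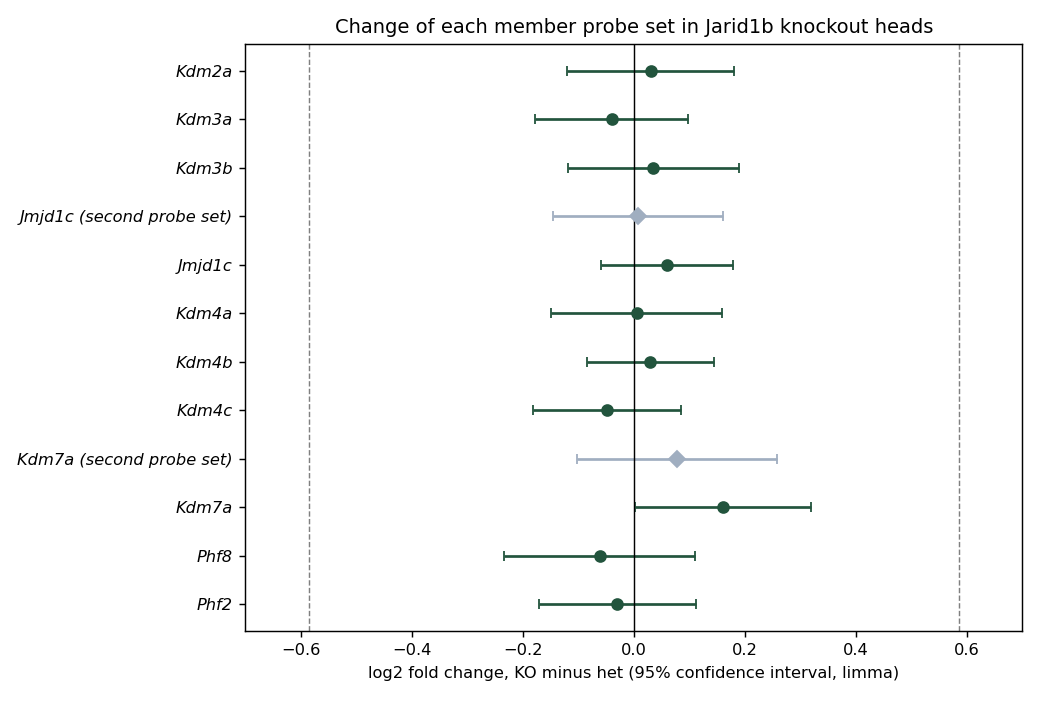
Log2 fold change (KO minus het) of each member probe set with its 95% confidence interval from limma, with probe sets that stand for a gene in green, second probe sets in gray and dashed lines at a 1.5-fold change. The interval of Kdm7a begins at 0.0019, all other intervals include 0, and none reaches a dashed line.

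Paralogs were then compared within each array, to ask whether the members of a subfamily changed unequally. For each of 9 pairs of the Kdm3, Kdm4 and Kdm7 subfamilies, the log2 ratio of both genes was taken per pool. These pairs were chosen after the values of the single genes were seen. Each gene entered with the probe set that stood for it, which for Kdm7a and Jmjd1c already separated the genotypes. Their second probe sets were not compared. Kdm7a over Phf2 had a log2 ratio of 0.43 to 0.60 in heterozygotes and of 0.63 to 0.73 in knockouts, and was the only pair without overlap. The difference was 0.19 with a standard error of 0.06 (two-sided exact permutation p = 0.1, n = 3 against 3, adjusted p = 0.6 over the 9 pairs), and 0.1 is the smallest p that 3 against 3 pools allow. Kdm7a over Phf8 differed by 0.22, with a larger standard error of 0.13 and overlapping groups (exact permutation p = 0.2). The other 7 pairs differed by -0.10 (Kdm3a over Jmjd1c) to 0.08 (Kdm4b over Kdm4c), with exact permutation p-values of 0.2 or more. Since no pair could pass at this number of pools, the test does not show whether members of a subfamily changed equally.

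No pool stood apart for the demethylases as a group. Knockout replicate 1 was the highest pool for 4 of the 10 genes and heterozygote replicate 3 the lowest for 4. Each pool was the highest or lowest for at least 2 members. The median deviation from the mean of a gene lay between -0.010 and 0.026 in every pool, and single deviations ran from -0.17 (Kdm7a in heterozygote replicate 3) to 0.16 (Kdm7a in knockout replicate 2). Knockout replicate 2, with its high summed blood markers, had a median deviation of 0.011, and knockout replicate 3, with its low yolk sac markers, of -0.006.

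Other enzymes and readers of the same marks were compared in the same fit. Of 53 genes on 6 lists, 49 were measured, and limma gave none of them an adjusted p under 0.05. With an unadjusted p under 0.05, 0 genes were found higher in knockouts and 1 lower, against 5.97% and 4.66% of all probe sets. Their median log2 fold change was -0.024, with 18 positive and 31 negative values, and groups did not overlap for 2 genes in the higher (Riox1 and Zfp644) and 4 in the lower direction (Setdb2, Cdyl2, Wiz and Dnmt3b). Over all probe sets these shares were 8.03% and 9.03%, and over the brightest 7263, which hold most of these genes, 3.06% and 16.8%, with a median log2 fold change of -0.035. Nothing particular to the related genes can be read from their counts or signs.
The opposing H3K9 methyltransferases had a median of -0.0057 over 8 genes. Setdb2, a member of this class, was measured at 6.82, 6.89 and 6.84 in heterozygotes and at 6.55, 6.70 and 6.68 in knockouts. All 3 knockout pools were lower, and the log2 fold change was -0.21 with a standard error of 0.06 (limma unadjusted p = 0.0102, adjusted p = 0.398). At the other end of this list Prdm16 was at 0.08. Ehmt1 and Ehmt2, which form the main complex for H3K9 dimethylation, were at -0.02 and 0.01, and Setdb1, which works with Trim28 at silenced repeats, was at -0.0030.
Among 10 measured H3K9 readers and cofactors, with a median of -0.0066, the chromodomain protein Cdyl2 had the lowest value at -0.27 (standard error 0.12, limma adjusted p = 0.485) and Trim28 the highest at 0.05. Cdyl2 was lower in all knockout pools, from 5.31 in knockout replicate 3 to 5.77, than in heterozygotes at 5.82 to 5.97. The heterochromatin proteins Cbx1, Cbx3 and Cbx5 were at 0.02, 0.0055 and 0.04.
For H3K36, the 6 methyltransferases measured had log2 fold changes from -0.08 (Smyd2) to 0.03 (Nsd2), with a median of -0.026. Setd2, the enzyme for H3K36 trimethylation, was at -0.02. The 12 readers ran from -0.12 (Dnmt3b) to 0.05 (Zmynd11), with a median of -0.032. Dnmt3b, a DNA methyltransferase whose PWWP domain binds methylated H3K36, was lower in all knockout pools (limma adjusted p = 0.505).
Among 10 other JmjC proteins, with a median of -0.032, values ran from -0.13 for the X-linked H3K27 demethylase Kdm6a to 0.10 for Kdm4d, a dim paralog of the Kdm4 genes. Kdm2b, the paralog of Kdm2a, was at 0.02. Riox1, a JmjC hydroxylase, was higher in all knockout pools at 0.10 (limma adjusted p = 0.537). Protein partners of the members that were measured, Arid5b, Skp1 and Hcfc1, were at -0.05, 0.03 and -0.0027. None of these values passed the adjusted threshold, and the p-values do not show that levels were equal.

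**Figure D3:**
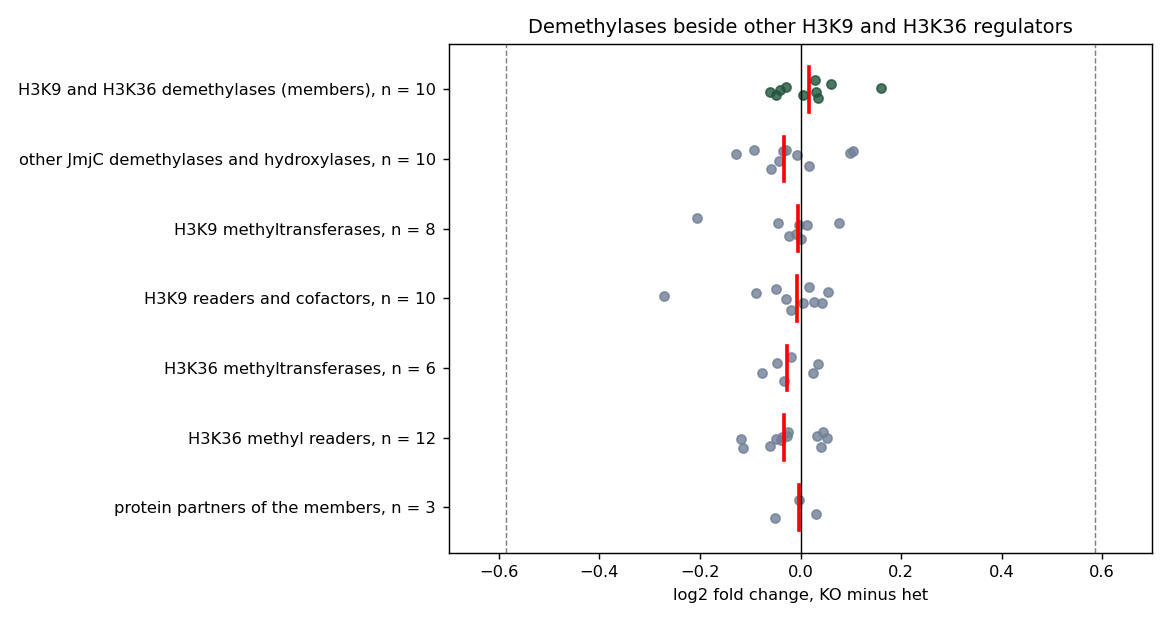
Log2 fold change (KO minus het) of the 10 demethylase genes (green) and of 49 measured genes on 6 related lists (gray), with red lines for list medians and dashed lines that mark 1.5-fold changes. Every gene lies between -0.27 (Cdyl2) and 0.16 (Kdm7a).

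Direction of the small member changes depended on the setting. Kdm7a, Jmjd1c and Kdm4b were positive and Phf8 negative in all 16 alternatives that were run, 10 of them other settings and 6 leaving out a pool. Some of these settings alter only the standard errors or the rows tested, and could not move a log2 fold change. They were leaving out dim probe sets, limma trend and robust, the replicate block and testing all rows. The mean of probe sets per gene could move only Kdm7a and Jmjd1c. Kdm7a ranged from 0.11 to 0.20, with an unadjusted p under 0.05 in 7 of the 16 and a lowest adjusted p of 0.369. Jmjd1c ranged from 0.03 to 0.10, Kdm4b from 0.02 to 0.07 and Phf8 from -0.12 to -0.0036. The other 6 genes changed sign in 1 to 3 alternatives each. Between 5 and 8 of the 10 members were positive across settings, with 8 after quantile or cyclic loess normalization and 5 with the Y-linked covariate.

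**Figure D4:**
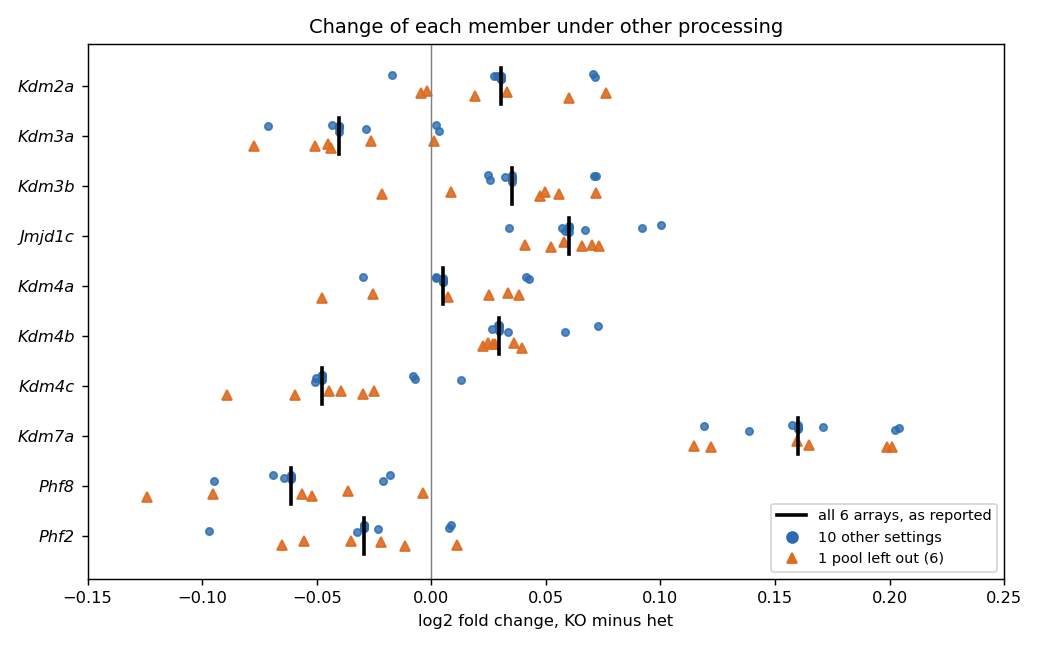
Log2 fold change (KO minus het) of each member with all 6 arrays (black bar), under 10 other settings (blue points) and without 1 of the 6 pools (orange triangles). Points of Kdm7a lie between 0.11 and 0.20, and those of Kdm2a, Kdm3a, Kdm3b, Kdm4a, Kdm4c and Phf2 cross 0.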

How the data were processed

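RNA from pooled E8.5 heads was measured on Affymetrix mouse Gene ST arrays, with 3 pools per genotype, grouped by the sample titles. Per the labels, RMA of the Affymetrix Power Tools gave the intensity values that the authors deposited. Its version was not given in the sources used here, and the values run from 2.53 to 11741 on a linear scale. Log2 was taken first. Of 35556 rows, 21789 had exactly 1 gene symbol in the platform annotation and were tested, 1621 had several and 12146 none listed. Of the tested rows, 21698 were matched by gene number to RefSeq names of GRCm38.p6.
Genotypes were compared with limma 3.58.1 (lmFit, eBayes) in R 4.3.3, without covariates, with Benjamini-Hochberg adjustment over all tested probe sets. The test was checked on simulated data. Exact permutation tests used scipy 1.17.1. The methods' Gene Array Analyzer was not used here. At its thresholds (p under 0.05 and at least 2-fold), 1 probe set and 0 members passed.
Named were the members, the Kdm5 genes, and the highest, the lowest and every gene at an unadjusted p under 0.05 of each related list. From the marker lists, genes at an unadjusted p under 0.05 and all measured blood and sex-linked genes were named. Kdm2b, Ehmt1, Ehmt2, Setdb1, Cbx1, Cbx3, Cbx5, Setd2, Riox1, Zfp644, Wiz and Hcfc1 were named after their values were seen. Members and lists were chosen with earlier results of these data known. Listed genes without such a row (Suv39h1, Mphosph8, Ash1l, Ncor1, Ddx3y) were not analysed here. Same-numbered pools deviated together with r between -0.013 and 0.106, so the numbers were not taken as pairs. Precision is limited by the 6 arrays. The limma p-values and intervals reflect only the spread of these pools, with that of each probe set drawn toward the spread of all tested probe sets.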

Additional observations from a re-analysis of the deposited data

How the results depend on the processing

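No alternative gave a member an adjusted p under 0.05. The count of members at an unadjusted p under 0.05, 1 as reported, was 0 with median centring, with the replicate block, with the Y-linked covariate, with all 35556 rows tested and with the mean of probe sets per gene, and ranged from 0 to 1 when a pool was left out. It was 0 without heterozygote replicate 2 or 3 and without knockout replicate 2 or 3. Members with groups that do not overlap, 2 as reported, were 0 with the mean of probe sets per gene, 3 after quantile or cyclic loess normalization and from 2 to 3 when a pool was left out. Of these, 1 was lower in knockouts without heterozygote replicate 2, knockout replicate 1 or knockout replicate 2, and 0 in every other setting. The share of all probe sets without overlap was not counted in these settings. Groups of 3 against 2 pools separate more easily than 3 against 3, so counts with a pool left out are not comparable with the reported 2. The count of related genes at an unadjusted p under 0.05, 1 as reported, was 3 after quantile or cyclic loess normalization and with limma trend and robust, 2 with median centring, the replicate block or the Y-linked covariate, and from 1 to 3 when a pool was left out. Of all probe sets, 4.11% were higher and 4.13% lower at that level after quantile normalization. With limma trend and robust these shares were 4.84% and 6.38%. They were 4.08% and 4.26% after cyclic loess, 5.56% and 4.86% with median centring, and 6.06% and 3.95% with the replicate block. The Y-linked covariate gave 4.74% and 3.35%, all rows tested 5.08% and 3.5%, and the mean of probe sets per gene 6.04% and 4.72%. When a pool was left out, these shares ran from 4.72% to 6.35% higher and from 2.84% to 4.94% lower. The sample titles do not say whether replicate numbers pair the pools. The replicate block changed no other count. Signs turned as follows. With the Y-linked covariate, log2 fold changes were -0.017 for Kdm2a, -0.030 for Kdm4a and 0.013 for Kdm4c. After quantile normalization they were 0.0035 for Kdm3a and 0.0076 for Phf2, and after cyclic loess 0.0020 and 0.0088. When a pool was left out, Kdm2a was between -0.0045 and 0.076, Kdm3a between -0.077 and 0.0013, Kdm3b between -0.021 and 0.072, Kdm4a between -0.048 and 0.038, and Phf2 between -0.065 and 0.011. The cause of these turns was not tested.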

Other observations

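Markers of the tissues in the head pools were counted in the same fit, which gave none of them an adjusted p under 0.05. With an unadjusted p under 0.05, a level passed by 5.97% of all probe sets in the higher and 4.66% in the lower direction (0.716% and 6.71% of the brightest 7263), 1 of 10 neural ectoderm genes was higher (Sox1) and 3 were lower (Hesx1, Rax and Six3), and 3 of 8 surface ectoderm genes were lower (Cdh1, Krt18 and Esrp1). Of 6 primitive blood genes 1 was higher (Klf1), and of 8 heart genes 1 was lower (Tbx5). Counts were 0 for 9 genes of head mesenchyme and neural crest, 7 of endothelium, 8 of yolk sac endoderm and 4 sex-linked genes. Cdh1 and Krt18 were lowest in knockout replicate 3, the pool with low yolk sac markers, and Esrp1 in knockout replicate 2. The tissue that gave the signal of the surface ectoderm markers was not tested. Median log2 fold changes were -0.027 for neural ectoderm, -0.029 for mesenchyme and neural crest, -0.15 for surface ectoderm, -0.032 for endothelium, 0.55 for primitive blood, 0.054 for heart, -0.31 for yolk sac endoderm and 0.86 for the sex-linked genes. The sex-linked median joins genes that moved in opposite directions. Xist was at -0.999, while the Y-linked Kdm5d, Uty and Eif2s3y were at 0.809, 0.903 and 0.926. Pools of a genotype also differed in the yolk sac and blood lists. The median deviation of yolk sac markers from the mean of each gene was 0.199, 0.267 and -1.145 in knockout replicates 1, 2 and 3. In heterozygotes it was 0.267, -0.018 and 0.198. For blood markers it was -0.28, 1.009 and 0.191 in knockouts and -0.136, -0.585 and -0.199 in heterozygotes.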
